A study of Homo sapiens with 32 samples.

Results

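The integrin and laminin genes of 3 Ewing sarcoma cell lines were followed through loss of the cohesin subunit STAG2, loss of its paralog STAG1 and loss of Polycomb repressive complex 2 (PRC2). Genes were taken by symbol, every ITGA and ITGB gene and every LAMA, LAMB and LAMC gene, without binding-protein, ITGBL and antisense entries. This gave 38 of the 28278 genes counted, 26 integrins (18 alpha and 8 beta subunits) and 12 laminin chains, and the same 38 were found by Ensembl identifier in the table of the knockdown experiment. Integrins are surface receptors made of 1 alpha and 1 beta subunit that join the cytoskeleton to the extracellular matrix or to other cells. The alpha subunit largely sets what is bound. ITGA1, ITGA2, ITGA10 and ITGA11 bind collagen, ITGA3, ITGA6 and ITGA7 bind laminin, ITGA5, ITGA8, ITGAV and ITGA2B bind ligands with an RGD motif such as fibronectin and vitronectin, ITGA4 and ITGA9 bind VCAM1 and other ligands, and ITGAL, ITGAM, ITGAX, ITGAD and ITGAE are known from leukocytes. Laminins are basement membrane trimers of 1 alpha, 1 beta and 1 gamma chain, and the chains LAMA3 and LAMB3 are best known from epithelia.

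RNA-seq libraries came from A673, SK-N-MC and A4573, lines of Ewing sarcoma, a tumour driven by the fusion factor EWS::FLI1. Experiments 1 and 2 each held 2 libraries of the A673 WT clone, which carries a doxycycline-inducible Cas9 (iCas9) at the AAVS1 locus, and 1 of parental A673 without Cas9. These 6 libraries were the STAG2-proficient group. STAG2 KO was represented by 2 libraries in experiment 1 and 3 in experiment 2, and EZH2 KO and SUZ12 KO, which remove subunits of PRC2, by 3 clones each in experiment 2. Experiment 3 held 1 parental library, 1 of the WT clone and 3 STAG1 KO clones, and experiment 4 held A673 cells mock transfected (siC, 3 libraries) or transfected with an siRNA against STAG2 (siSTAG2, 3 libraries). All A673 KO clones descend from the WT clone, so they share the iCas9 insertion and a single-cell origin. SK-N-MC with iCas9 was compared with its STAG2 KO, and A4573 with iCas9, which has no STAG2 protein by the study's description, with A4573 in which STAG2 was restored by knock-in (STAG2 KI), with 1 library per arm. The labels name a different clone for each KO library of an experiment, so the spread within a KO group includes that between clones. No label says that the libraries of the WT clone or of a transfected arm are separate cultures. The p-values measure the spread between these libraries.

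The 22 A673 libraries of experiments 1 to 3 held 15734628 to 20663679 counts and the 4 SK-N-MC and A4573 libraries 29322507 to 32261248. STAG2 RNA was lower in STAG2 KO (log2 fold change -1.81, adjusted p = 0.00424), but the experiment 1 library numbered 24 kept 183 CPM (counts per 1000000 of the library), against 42.2 to 68.9 in the other 4 KO libraries and 254.6 to 358.5 in the controls. EZH2 and SUZ12 RNA were lower in their own KO clones (log2 fold change -1.98 and -1.90), and STAG2 RNA was lower after siSTAG2 (-2.72). STAG1 RNA was 61.1 CPM in the library labelled STAG1 KO g2n1, between the 57.4 and 69.2 CPM of the controls, against 15.0 in g2n5 and 33.0 in g2n7. STAG2 KO clone 5 of experiment 2 stood apart from the other 2 KO clones of that experiment (chi-square per gene 113 and 140, against 25.7 between those 2), while the 2 WT clone libraries of experiment 1 differed little (1.33). Of the Ewing sarcoma markers, CD99 had 0 counts in the A673 libraries of experiments 1 to 3 but not in experiment 4. There it was at 6420 ± 417 normalised counts with siC and 3820 ± 92.3 with siSTAG2 (log2 change -0.75, adjusted p = 1.99e-10). The other 8 were at 25.2 CPM or more in every A673 library of experiments 1 to 3.

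In the A673 controls, 5 genes led when CPM was divided by exon length. ITGB1, the common partner of most alpha subunits, reached 47.0 ± 8.43 CPM per kb (SD, n = 8 control libraries of experiments 1 to 3), ITGB5 32.2 ± 5.97, LAMC1 27.3 ± 3.91, ITGA5, the alpha subunit of the classical fibronectin receptor, 25.9 ± 3.64, and LAMB1 22.9 ± 4.39. The ranges of neighbours in this order overlapped, but LAMB1 (15.9 to 29.2 CPM per kb) did not overlap the next gene, LAMB2 (6.88 to 11.7). LAMA5 followed at 6.48 ± 5.23, ITGAV at 4.52 ± 0.722, ITGAE at 4.24 ± 1.57 and ITGA7 at 2.71 ± 0.764. ITGA1, LAMB3, ITGA4, ITGA6, ITGB2 and LAMA3 were between 1.38 and 1.01 CPM per kb, and the other 22 genes were lower. LAMA1 had no count in any control library. LAMA5 was the gene with the widest relative spread among the 10 highest, from 13.2 CPM in the parental library of experiment 2 to 207.8 CPM in the WT clone library of experiment 3.

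**Figure D1:**
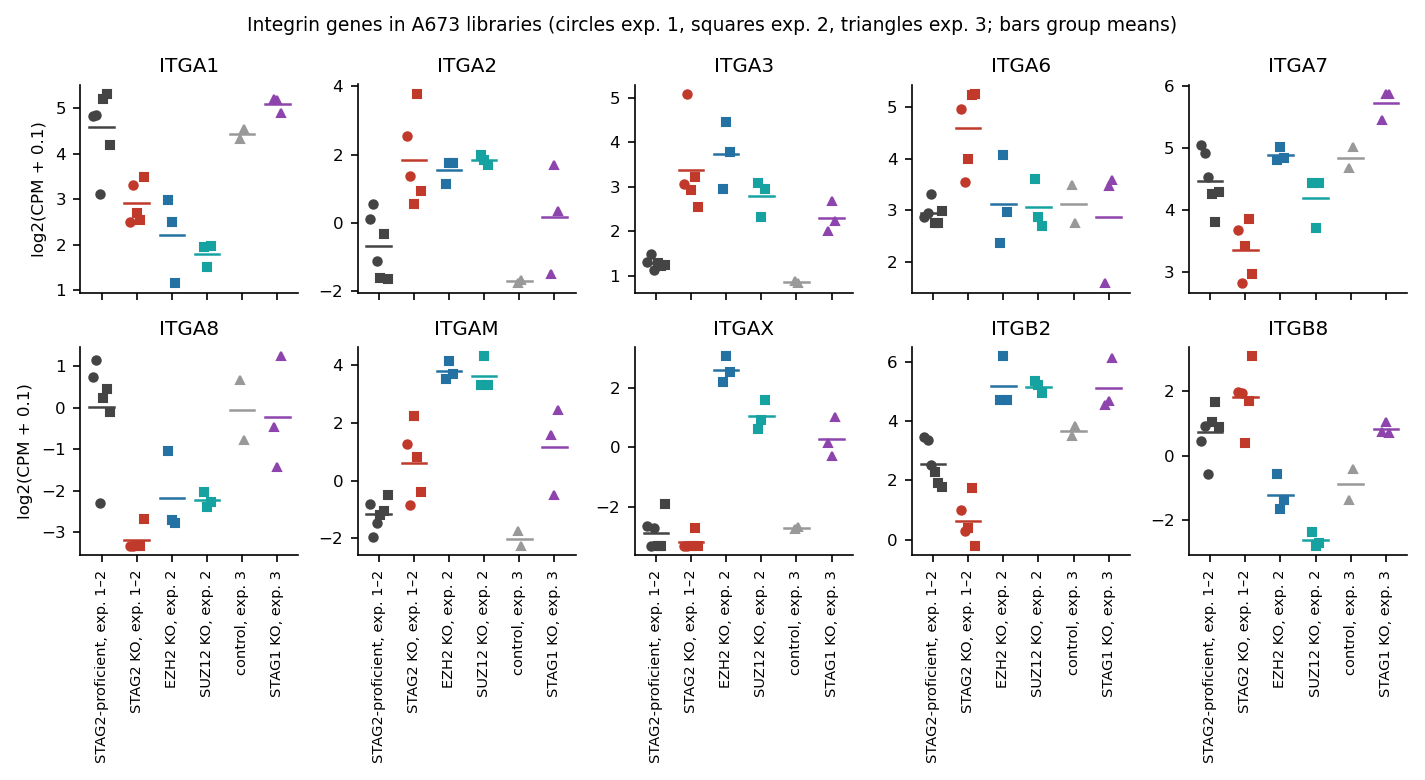
Level of 10 integrin genes in the A673 libraries of experiments 1 to 3 as log2(CPM + 0.1), grouped by genotype, with 1 library per point and a bar at each group's mean on that scale; the vertical axes differ between genes. ITGB2 lies at 25.9 to 72.0 CPM in the EZH2 KO libraries and at 0.773 to 3.23 in the 5 STAG2 KO libraries, with the STAG2-proficient libraries between 3.32 and 10.8.

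Upstream sequence is shown for 5 genes that changed in both EZH2 KO and SUZ12 KO (their values follow in the account of those clones), 3 that rose and 2 that fell. Each line gives the 250 bases before the RefSeq start of the gene (GRCh38.p14), 5′ to 3′ on the strand of the gene, and capitals mark GGAA and its complement TTCC, the core bound by ETS factors such as FLI1. ITGAM was at chr16:31259725-31259974 (+), LAMB3 at chr1:209652426-209652675 (-, 1 of 3 starts listed), ITGA2 at chr5:52989102-52989351 (+), ITGA1 at chr5:52787666-52787915 (+) and ITGA8 at chr10:15719923-15720172 (-).
ITGAM: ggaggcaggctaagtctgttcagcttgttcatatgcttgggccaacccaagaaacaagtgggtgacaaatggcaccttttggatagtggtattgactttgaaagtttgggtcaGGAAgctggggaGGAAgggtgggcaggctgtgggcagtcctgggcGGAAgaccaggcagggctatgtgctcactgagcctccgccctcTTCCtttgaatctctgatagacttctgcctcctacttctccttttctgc
LAMB3: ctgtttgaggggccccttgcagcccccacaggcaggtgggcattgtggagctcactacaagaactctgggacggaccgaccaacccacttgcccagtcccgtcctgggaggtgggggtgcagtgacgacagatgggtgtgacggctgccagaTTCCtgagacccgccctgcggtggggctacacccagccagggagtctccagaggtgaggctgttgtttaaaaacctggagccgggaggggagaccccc
ITGA2: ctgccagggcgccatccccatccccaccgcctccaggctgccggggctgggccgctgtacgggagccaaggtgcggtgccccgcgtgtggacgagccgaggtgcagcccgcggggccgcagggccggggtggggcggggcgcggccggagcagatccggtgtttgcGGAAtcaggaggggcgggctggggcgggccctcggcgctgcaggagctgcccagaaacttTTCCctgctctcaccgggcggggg
ITGA1: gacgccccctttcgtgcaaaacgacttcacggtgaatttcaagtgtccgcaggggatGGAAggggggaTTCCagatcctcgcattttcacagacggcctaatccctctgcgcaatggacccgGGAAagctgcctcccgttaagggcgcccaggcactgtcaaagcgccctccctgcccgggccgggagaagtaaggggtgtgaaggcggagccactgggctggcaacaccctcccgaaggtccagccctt
ITGA8: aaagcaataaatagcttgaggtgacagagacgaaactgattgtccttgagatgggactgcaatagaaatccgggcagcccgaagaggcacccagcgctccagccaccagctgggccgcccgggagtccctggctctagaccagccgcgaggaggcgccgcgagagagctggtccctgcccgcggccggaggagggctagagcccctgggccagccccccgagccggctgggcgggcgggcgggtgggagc
The windows held 4 matches for ITGAM, 1 for LAMB3, 2 for ITGA2, 3 for ITGA1 and 0 for ITGA8. Over 35116 promoter windows of the same length, 92.7% held at least 1 match on either strand and the median was 3, so a match is common. Directly repeated GGAAGGAA or its complement, found in 3.06% of all windows, was in 2 of the 33 windows of the 26 matched genes, those of ITGA10 and LAMB2. The windows also differed in CpG content. The observed to expected CpG ratio was 0.115 in ITGAM and 0.315 in LAMB3, below the median of 0.558 over all windows, and 0.725, 0.666 and 0.663 in ITGA2, ITGA1 and ITGA8. ITGA1 and ITGA2 are neighbours on chromosome 5, 30.1 kb apart, and ITGAM, ITGAX and ITGAD follow each other on chromosome 16 with gaps of 22.2 and 10.3 kb. Among the genes described in most detail, the GENCODE annotation of hg38 places ITGB2 at chr21:44885953-44931989 (-), ITGA3 at chr17:50055968-50090481 (+), ITGA6 at chr2:172427354-172506459 (+), LAMA3 at chr18:23689453-23956222 (+) and LAMA4 at chr6:112107931-112254939 (-).

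The first comparison asked how STAG2 KO changed these genes in A673. Expression of ITGA2, ITGA3, ITGA6 and ITGAM rose and that of ITGA1, ITGA7, ITGA8, ITGB2, ITGB5, LAMA3 and LAMA4 fell. In such bulk libraries a change in the share of cells that make an RNA and a change in RNA per cell cannot be told apart. Of the 38 genes, 28 passed the filter on low counts, and 11 of them (39.3%) were called at an adjusted p under 0.05 (edgeR quasi-likelihood test, experiment as a term, Benjamini-Hochberg over all 13574 genes tested), against 12.4% of all genes. The 4 that rose compare with 6.67% of all genes rising, and the 7 that fell with 5.76% falling. The median log2 change of the 28 genes was 0.14, against 0.041 over all genes. In 7 of the 28 the 2 groups did not overlap, against 8.22% of all genes. Among the called genes, ITGA2 and ITGAM passed the filter only with the KO libraries and ITGA8 and LAMA4 only with the controls, the groups in which they were high.

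Markers used for fibroblasts also changed. Of the 5 listed, COL1A1, COL1A2, DCN and LUM fell in STAG2 KO and PDGFRA was not called, with a median log2 change of -2.97. Their summed level was 703 to 1650 CPM in the STAG2-proficient and 101 to 279 CPM in the STAG2 KO libraries. DCN went from 3.10 ± 0.929 to 0.193 ± 0.315 CPM (log2 fold change -4.04, adjusted p = 0.00615) and LUM from 3.50 ± 3.84 to 0.422 ± 0.794 (-3.36, adjusted p = 0.0364). With siSTAG2 all 4 tested fell (median log2 change -2.25), LUM from 43.0 ± 7.45 to 3.26 ± 0.908 normalised counts. The part of these markers in the changes of the integrin and laminin genes was not tested.

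Among the laminin-binding subunits, ITGA3 and ITGA6 rose and ITGA7 fell. ITGA3 was at 2.07, 2.30 and 2.69 CPM (lowest, median and highest of 6 STAG2-proficient libraries) and at 8.29 and 33.8 CPM in the STAG2 KO libraries of experiment 1, those numbered 5 and 24, and 7.50, 9.23 and 5.69 in clones 3, 5 and 2 of experiment 2. The groups did not overlap, and library 24 stood well above the other KO libraries. The log2 fold change of ITGA3 was 2.42 (SE 0.386, adjusted p = 0.00246). ITGA6 went from 6.63, 7.42 and 9.90 CPM in the proficient libraries to 31.2, 11.5, 15.7, 37.4 and 37.9 in the same KO libraries, again without overlap (log2 fold change 1.83, SE 0.319, adjusted p = 0.00396). ITGA7, the laminin receptor subunit best known from muscle, fell from 23.1 ± 7.23 CPM (SD, n = 6) to 10.5 ± 3.15 (n = 5), with overlapping groups (log2 fold change -1.01, adjusted p = 0.0298). Its call was lost without any one of 6 libraries (adjusted p 0.0564 to 0.0753): both WT clone libraries and both KO libraries of experiment 1, WT clone R1 and KO clone 2 of experiment 2.

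The neighbouring collagen receptor genes changed in opposite directions. ITGA1 was at 8.55, 28.7 and 39.8 CPM in the proficient libraries and at 5.58, 9.89, 6.40, 5.79 and 11.2 CPM in STAG2 KO (log2 fold change -1.75, SE 0.365, adjusted p = 0.00984). The 3 lowest KO values lay below every control, while the parental library of experiment 1 at 8.55 CPM lay within the KO range. ITGA2 was at 0.222, 0.532 and 1.37 CPM in the proficient libraries and at 5.75, 2.47, 1.36, 13.6 and 1.82 in STAG2 KO, where clone 5 of experiment 2 was highest (log2 fold change 3.13, SE 0.755, adjusted p = 0.0199). The ITGA2 call was lost without KO library 5 of experiment 1 (adjusted p = 0.0572) or WT clone R1 of experiment 2 (0.0604). Exons of ITGA1 overlap those of PELO on the same strand, so reads there cannot be assigned to 1 of the 2 genes.

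ITGA8, an RGD-binding subunit, was at 0.104, 1.18 and 2.11 CPM in the proficient libraries and had at most 1 count in each of the 5 KO libraries. Against a floor of 3 counts per library, averaged over the group, it was at least 7.05-fold lower in STAG2 KO (adjusted p = 0.00261). The other RGD-binding subunits gave no call over both experiments: ITGA5 was at 186 ± 28.1 CPM in the proficient and 185 ± 55.9 in the KO libraries, ITGAV at 91.9 ± 13.2 and 118 ± 39.1, and ITGA2B at 2.18 ± 2.31 and 1.12 ± 1.66. In experiment 1 alone edgeR called ITGA2B lower (log2 fold change -2.62, adjusted p = 0.0321) and ITGAV higher (0.37, adjusted p = 0.0361). ITGA4 rose by 1.57 on the log2 scale without passing the threshold by edgeR (adjusted p = 0.0826), from 10.3 ± 5.63 to 31.1 ± 17.6 CPM. DESeq2 called it (1.56, adjusted p = 0.00829). By edgeR its log2 change was 0.34 in experiment 1 alone (adjusted p = 0.71) and 2.45 in experiment 2 alone (0.0209).

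Among the beta subunits, ITGB2 and ITGB5 fell and the levels of ITGB1 were 713 ± 129 and 817 ± 206 CPM (adjusted p = 0.43). ITGB2, the beta subunit of the leukocyte integrins, was at 3.32, 5.23 and 10.8 CPM in the proficient libraries and at 1.90, 1.12, 1.21, 3.23 and 0.773 in STAG2 KO. The groups did not overlap, though KO clone 5 of experiment 2 lay just under the lowest control (log2 fold change -1.71, SE 0.461, adjusted p = 0.0339). The call of ITGB2 was lost without any one of 7 libraries (adjusted p 0.0623 to 0.0992): both WT clone and both KO libraries of experiment 1, WT clone R1 and KO clones 3 and 2 of experiment 2. ITGB5, a partner of ITGAV, fell from 208 ± 45.4 to 154 ± 13.2 CPM (log2 fold change -0.41, adjusted p = 0.0174). ITGB2 shares sequence with the antisense gene ITGB2-AS1, and since the libraries are non-directional, reads of the 2 cannot be told apart: ITGB2-AS1 was at 9.20 to 24.7 CPM in the proficient and 3.70 to 14.6 CPM in the KO libraries. ITGAM, which pairs with ITGB2, went from 0.158, 0.361 and 0.609 CPM to 2.30, 0.450, 4.67, 1.67 and 0.662 (log2 fold change 2.35, adjusted p = 0.0212). This call was lost without KO library 5 of experiment 1 (0.098), WT clone R1 (0.0659) or R2 (0.0591) or KO clone 3 (0.068) of experiment 2.

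Among the laminin chains that passed the filter, those called were alpha chains. LAMA3 fell from 10.3, 11.5 and 17.2 CPM to 2.36, 4.16, 4.36, 3.91 and 2.26 (log2 fold change -1.82, SE 0.26, adjusted p = 0.00121). LAMA4, a chain of vascular and muscle laminins, fell from 2.61, 3.06 and 4.19 CPM to 0.518, 0, 0.0525, 0.469 and 0.110 (log2 fold change -3.73, SE 0.659, adjusted p = 0.00426). Neither gene overlapped between groups, and both calls held whichever single library was left out, as did those of ITGA1, ITGA3, ITGA6 and ITGB5. ITGA8 was called in every such fit that tested it. It did not pass the filter, and so was not tested, without any one control other than the parental library of experiment 1. LAMC3, a gamma chain that did not pass the filter on low counts, was at 0.566, 1.53 and 2.64 CPM in the proficient libraries and at 0.288, 0.0562, 0.472, 0.157 and 0.221 in STAG2 KO, at most 9 counts in any KO library. It was called lower without the filter (log2 fold change -2.36, adjusted p = 0.0252) and by DESeq2 (-2.40, adjusted p = 8.2e-04). The abundant chains LAMB1, LAMC1 and LAMB2 were at 442 ± 90.1, 222 ± 34.7 and 61.3 ± 8.48 CPM in the proficient and 400 ± 35.2, 258 ± 13.8 and 55.1 ± 11.1 CPM in the KO libraries, with no call. The log2 change of LAMA5 was -2.52 in experiment 1 alone (adjusted p = 0.0249) and 0.28 in experiment 2 alone (0.88), a difference that an interaction test did not call (adjusted p = 0.173). In experiment 2, KO clone 5 was at 66.2 CPM and clones 3 and 2 at 5.98 and 5.85.

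**Figure D2:**
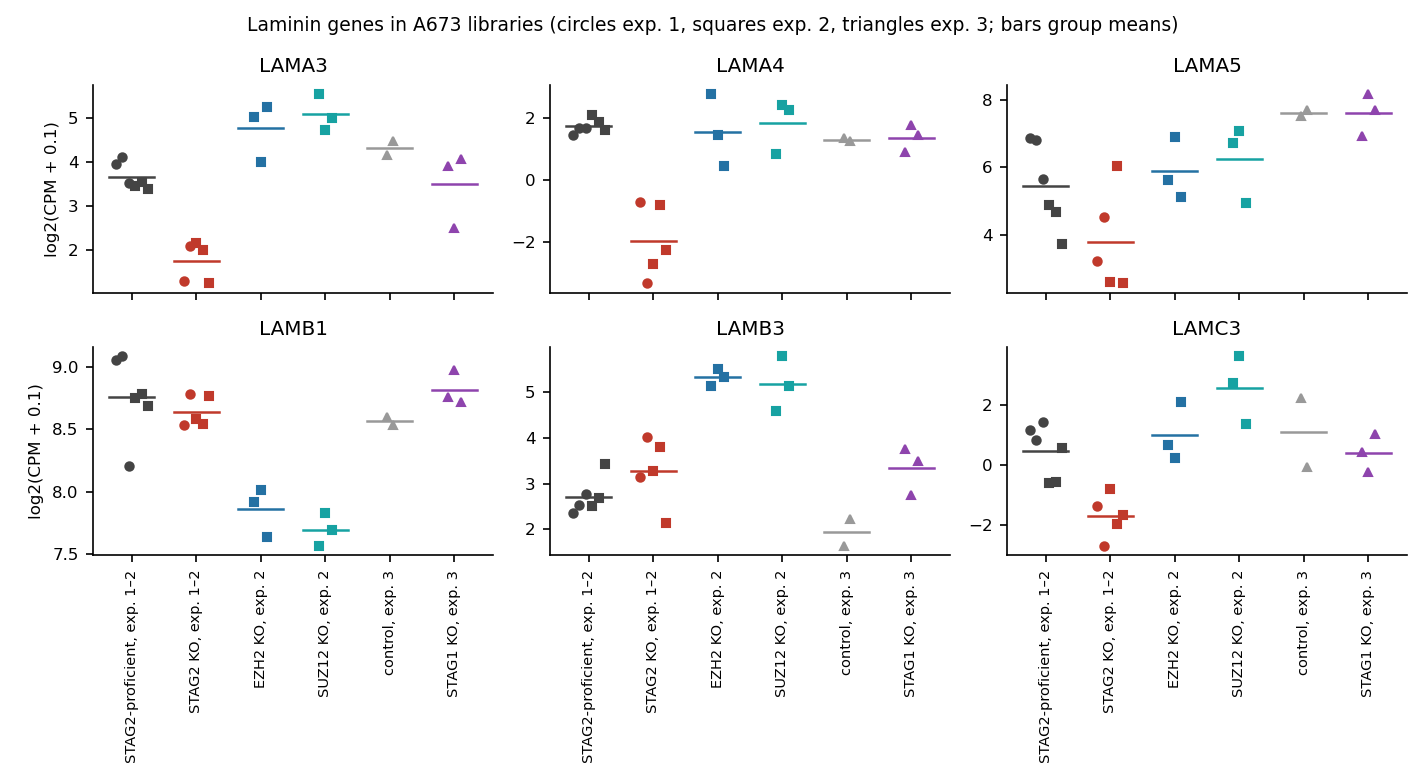
Level of 6 laminin chain genes in the A673 libraries of experiments 1 to 3 as log2(CPM + 0.1), grouped by genotype, with 1 library per point and a bar at each group's mean on that scale; the vertical axes differ between genes. LAMA3 lies at 2.26 to 4.36 CPM in the 5 STAG2 KO libraries, below the 10.3 to 17.2 of the STAG2-proficient libraries, while the EZH2 KO and SUZ12 KO libraries lie at 15.9 to 46.6.

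Taken within each experiment, the 10 called genes measured in both kept their direction: log2 changes in experiments 1 and 2 were -1.50 and -1.98 for ITGA1, 2.18 and 3.94 for ITGA2, 3.14 and 1.77 for ITGA3, 1.38 and 2.16 for ITGA6, -1.54 and -0.62 for ITGA7, -7.51 and -5.38 for ITGA8 (fitted values that depend on the prior count), -2.55 and -1.09 for ITGB2, -0.27 and -0.53 for ITGB5, -2.17 and -1.57 for LAMA3, and -3.46 and -3.96 for LAMA4. ITGAM passed the filter in experiment 2 only, where its log2 change was 2.42. These genes were picked by their calls over both experiments together, so a shared direction is no independent check. By edgeR, experiment 1 alone gave no call for ITGA1, ITGA6, ITGA8 and ITGB5 (adjusted p 0.0596 to 0.101). Experiment 2 alone gave none for ITGA2, ITGA7, ITGAM, ITGB2 and ITGB5 (0.0852 to 0.287). An interaction of genotype and experiment was called by edgeR for 0 of the 28 genes tested and for 0 of all 13574 genes (adjusted p under 0.05), and 4 of the 28, ITGA2B, ITGA4, ITGA9 and ITGB4, had an unadjusted p under 0.05. The share of all genes at that unadjusted p was not counted. Against the 4 WT clone libraries alone edgeR called 7 of 29 genes, against 9.42% of all genes. Against the 2 parental libraries alone it called 0 of 28, against 0.822% of all genes, and 9 of the 28 had an unadjusted p under 0.05. The kind and the number of controls change together in these fits and cannot be told apart. The log2 change of ITGA1 was -2.08 (adjusted p = 0.0019) against the WT clone and -0.77 (adjusted p = 0.675) against parental cells.

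Since both kinds of control were pooled, the WT clone (n = 5) was also compared with parental cells (n = 3). ITGA1 was at 31.5 ± 6.67 CPM in the WT clone and 15.7 ± 6.24 in parental cells, without overlap (log2 fold change 1.04, adjusted p = 0.0406), and LAMA5 at 98.4 ± 75.1 and 82.8 ± 89.8 (log2 fold change 0.82 with experiment as a term, adjusted p = 0.03). These were 2 of 29 genes tested (6.9%), against 2.72% of all genes, 1.76% higher and 0.96% lower, and 3.2% of all genes did not overlap between these groups. Each call was lost when any one of several control libraries was left out, 5 for ITGA1 (adjusted p 0.0618 to 0.157) and 6 for LAMA5 (0.0522 to 0.127), the WT clone libraries of experiments 1 and 2 and the parental library of experiment 2 in both and that of experiment 1 for LAMA5. For ITGA1, the change in STAG2 KO thus started from controls that differed among themselves.

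**Figure D3:**
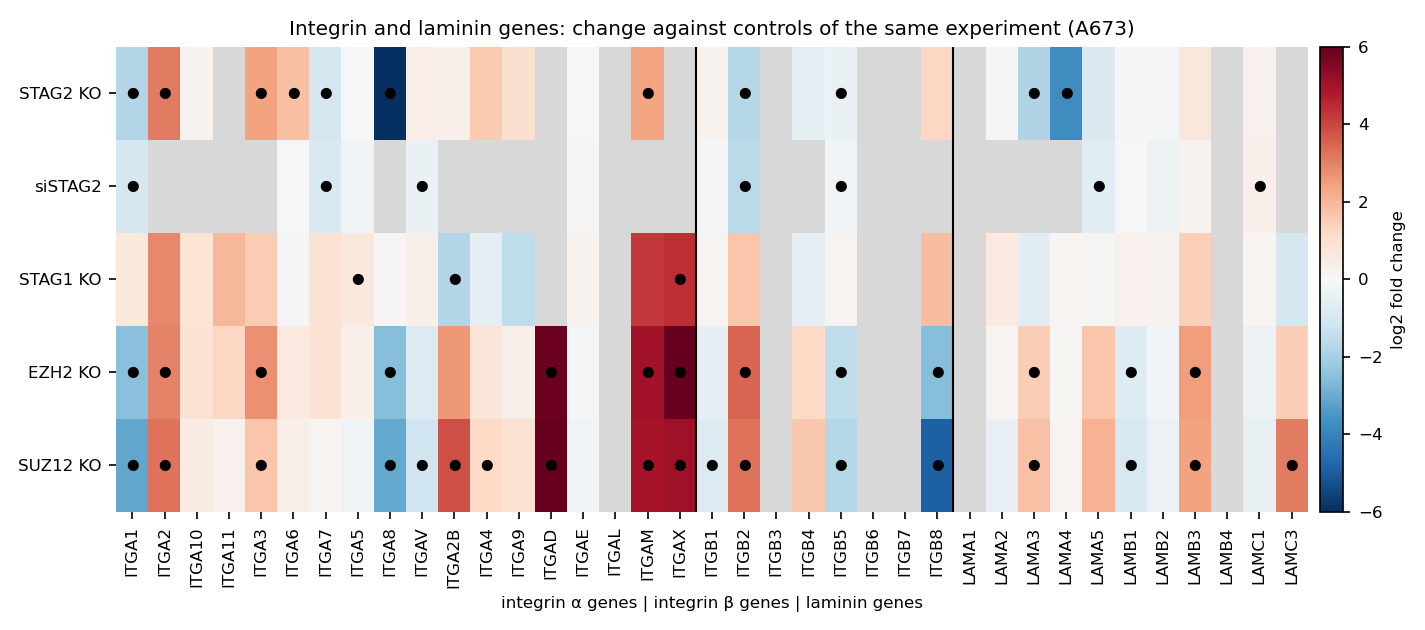
Heat map of the fitted log2 fold changes of 37 of the genes (columns) in STAG2 KO, siSTAG2, STAG1 KO, EZH2 KO and SUZ12 KO cells (rows) against their controls, red higher and blue lower, with dots on genes called at an adjusted p under 0.05, grey for genes not tested, and one shade for all changes beyond 6 in either direction. ITGB2 and LAMA3 are below 0 in STAG2 KO (-1.71 and -1.82) and above 0 in EZH2 KO (3.49 and 1.49) and SUZ12 KO (3.26 and 1.76).

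Loss of STAG2 by siRNA was measured in a separate experiment deposited as normalised read counts, with 14 of the 38 genes at a mean of at least 10. Of these, 7 were called (limma on log2(value + 1), Benjamini-Hochberg over 12060 genes), against 20.5% of all genes, 6 falling and 1 rising. The background was 11% falling and 9.54% rising, and the median log2 change was -0.21 for the 14 genes and 0.007 for all. ITGB2 changed most, from 147.7, 186.0 and 159.4 normalised counts with siC to 51.0, 66.8 and 41.5 with siSTAG2. The 2 arms were far apart (log2 change -1.63, SE 0.16, adjusted p = 1.86e-08). ITGA1 fell from 38.1, 39.4 and 46.9 to 15.5, 23.2 and 23.2 (log2 change -0.99, SE 0.242, adjusted p = 0.00416). ITGA7 fell from 48.6, 47.2 and 51.0 to 23.3, 28.7 and 24.2 (log2 change -0.93, SE 0.212, adjusted p = 0.00238). These 3 calls held whichever library was left out.

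The other calls of the knockdown were smaller. ITGB5 fell by 0.21 on the log2 scale (2249 ± 90.7 to 1940 ± 147, adjusted p = 0.0136, and 0.0931 without siSTAG2 replicate 1), and ITGAV by 0.38 (115 ± 0.765 to 88.3 ± 1.85, adjusted p = 0.0377), a call lost in all 6 fits with 1 library left out (0.0671 to 0.0984). LAMA5 fell from 58.0 ± 7.46 to 37.0 ± 5.40 (log2 change -0.63, adjusted p = 0.0216), lost without siC replicate 1 (0.105) or 2 (0.0532) or siSTAG2 replicate 3 (0.0961). LAMC1, the common gamma chain, rose from 279 ± 29.6 to 343 ± 6.48 (0.31, adjusted p = 0.016), lost without siC replicate 2 (0.0883) or siSTAG2 replicate 1 (0.0502) or 3 (0.051). ITGA6, which rose in the KO clones, was at 25.3 ± 4.87 with siC and 26.0 ± 3.4 with siSTAG2 (log2 change 0.04, SE 0.253, adjusted p = 0.933). ITGA2, ITGA3, ITGA8, ITGAM, LAMA3 and LAMA4 were below the mean of 10 and were not tested. LAMA4 was at 10.5, 8.86 and 11.5 with siC and 4.44, 5.56 and 6.76 with siSTAG2, and ITGA3 at 7.62, 0.984 and 3.12 and at 3.33, 3.71 and 3.86.

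**Figure D4:**
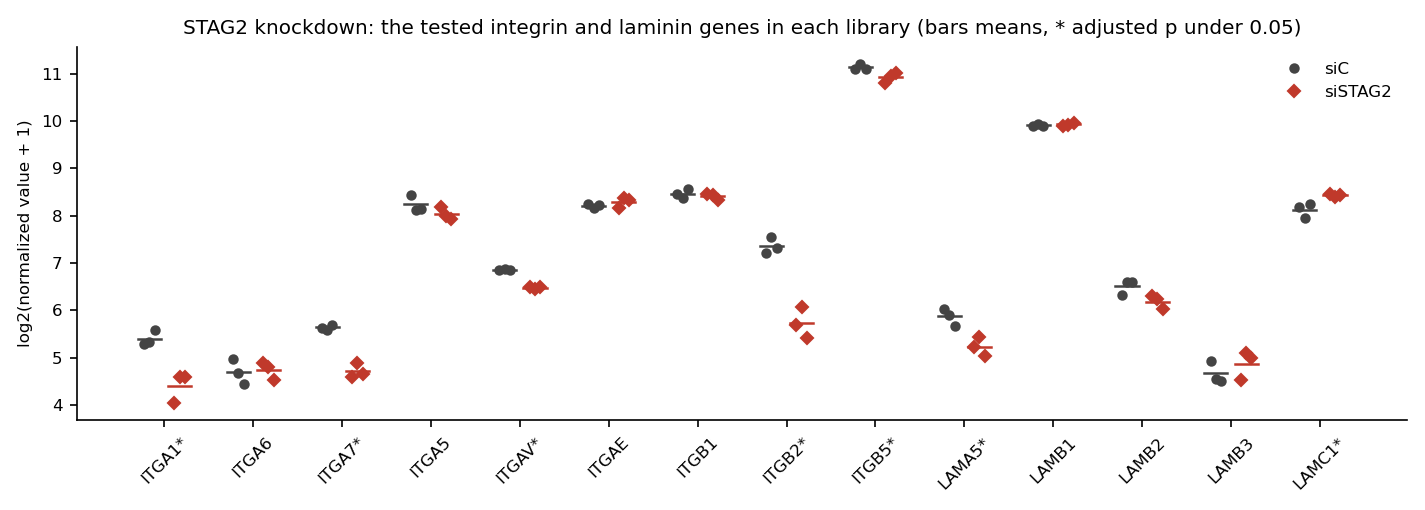
Normalised values of the 14 tested genes in the 3 siC and 3 siSTAG2 libraries as log2(value + 1), with 1 library per point, bars at the arm means and asterisks on called genes. The siSTAG2 points of ITGB2 (41.5 to 66.8 before the log) lie below all siC points (147.7 to 186.0), and those of ITGA1 and ITGA7 also lie below their siC points.

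Loss of PRC2 was compared within experiment 2 to ask which of these genes change without the H3K27 methyltransferase complex. In both PRC2 KOs, the leukocyte subunits ITGAM, ITGAX and ITGAD, their partner ITGB2, the receptors ITGA2 and ITGA3 and the laminin chains LAMA3 and LAMB3 rose, while ITGA1, ITGA8, ITGB5, ITGB8 and LAMB1 fell. In EZH2 KO, 13 of 31 genes tested (41.9%) were called, 8 higher and 5 lower, against 15.7% of all 15130 genes, 12% higher and 3.69% lower. In SUZ12 KO, 18 of 31 (58.1%) were called, 11 higher and 7 lower, against 20.6%, 14.7% and 5.87%. The median log2 change of the 31 genes was 0.78 in EZH2 KO and 0.35 in SUZ12 KO, against 0.037 and 0.009 over all genes. In 20 of the 31 genes the EZH2 KO libraries did not overlap the controls, and in 23 the SUZ12 KO libraries did not, against 48.1% and 50.8% of all genes. ITGAX, ITGAD, ITGA2B and LAMC3 passed the filter only with the PRC2 KO libraries and ITGA8 only with the controls. ITGAM and ITGA2 were over its minimum in 1 of 3 controls and in all 3 libraries of each KO. They therefore passed only with KO libraries. A call for any of these genes follows from being counted in those groups. EZH2 KO and SUZ12 KO were compared with the same 3 control libraries, so that their values are given side by side.

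ITGAM was at 0.340, 0.383 and 0.609 CPM in WT clone R1, R2 and parental cells, at 11.5, 17.6 and 12.8 in EZH2 KO clones 1 to 3 and at 9.89, 19.7 and 9.82 in SUZ12 KO clones 1 to 3. All 6 PRC2 KO libraries lay far above the controls (log2 fold change 5.04, adjusted p = 7.14e-04, and 4.93, adjusted p = 5.57e-04). ITGAX had at most 3 counts in each control and reached 4.55, 8.30 and 5.78 CPM in EZH2 KO and 1.46, 1.80 and 2.90 in SUZ12 KO, at least 35.4-fold and 11.7-fold higher. ITGAD had no count in the controls and was at 0.527, 0.0543 and 0.521 CPM and at 0.291, 0.631 and 0.268 CPM, at least 2.09-fold and 2.26-fold higher. ITGAL, the remaining ITGB2 partner, was at 0.676 CPM or less in every A673 library and did not pass the filter. It had 0 counts in the 3 controls and 4, 15 and 1 in SUZ12 KO, and was called higher there by DESeq2 (adjusted p = 0.0421) and by edgeR without the filter (0.031). ITGB2 itself was at 4.76, 3.63 and 3.32 CPM in controls, 25.9, 72.0 and 26.1 in EZH2 KO and 40.1, 36.7 and 30.3 in SUZ12 KO (log2 fold change 3.49, adjusted p = 0.00134, and 3.26, adjusted p = 0.00124). ITGB2-AS1 was at 9.20 to 12.3 CPM in these controls and at 14.9 to 49.3 in PRC2 KO, and the 2 genes cannot be told apart in these non-directional libraries.

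These genes are used as leukocyte markers, so other leukocyte genes were read beside them. PTPRC, the pan-leukocyte marker CD45, was at most at 0.217 CPM (4 counts) in any A673 library, CD3E at most at 0.0513. CD14, a monocyte marker, was at 0.191 to 0.340 CPM in the controls, 0.427 to 0.597 in EZH2 KO and 0.429 to 0.776 in SUZ12 KO. Markers of other cell types were read as well. Of 4 endothelial markers, PECAM1 rose from 0.468 ± 0.0625 CPM to 1.72 ± 0.127 in EZH2 KO (log2 fold change 1.95, adjusted p = 0.0329) and 2.14 ± 1.74 in SUZ12 KO (2.25, adjusted p = 0.013). The sum of the 4 was 0.793 to 1.21 CPM in the controls, 2.17 to 3.30 in EZH2 KO and 2.62 to 6.40 in SUZ12 KO. Of 4 epithelial markers, EPCAM was at least 7.62-fold higher in SUZ12 KO (adjusted p = 0.0248), and none was called in EZH2 KO. The sum of these 4 was 0.111 to 0.170, 0.287 to 0.434 and 0.582 to 2.79 CPM. Of 5 fibroblast markers, PDGFRA rose and COL1A2 fell in both KOs. Their sum was 703 to 1650 CPM in the controls, 716 to 987 in EZH2 KO and 506 to 679 in SUZ12 KO. The part of these markers in the rise of ITGAM, ITGB2, LAMA3 and LAMB3 was not tested.

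Among matrix receptors, ITGA3 was at 2.32, 2.23 and 2.27 CPM in the controls, 7.66, 21.9 and 13.6 in EZH2 KO and 8.44, 4.91 and 7.62 in SUZ12 KO (log2 fold change 2.75, adjusted p = 0.00111, and 1.69, adjusted p = 0.00996). ITGA1 fell from 36.9, 39.8 and 18.3 CPM to 7.81, 5.59 and 2.13 and to 3.78, 2.75 and 3.81 (log2 fold change -2.52, adjusted p = 0.00387, and -3.12, adjusted p = 9.96e-04), while its neighbour ITGA2 went from 0.227, 0.701 and 0.222 CPM to 2.11, 3.26 and 3.27 and to 3.88, 3.52 and 3.17 (log2 fold change 3 and 3.27, adjusted p = 0.0356 and 0.0195). For these 3 genes the KO libraries did not overlap the controls. ITGB5 went from 268, 258 and 206 CPM to 110, 75.2 and 57.7 in EZH2 KO and 68.0, 92.8 and 49.9 in SUZ12 KO (log2 fold change -1.50, adjusted p = 0.00224, and -1.73, adjusted p = 7.86e-04). ITGB8, the TGF-beta activating partner of ITGAV, was at 1.98, 3.06 and 1.77 CPM in controls and 0.575, 0.217 and 0.284 in EZH2 KO (log2 fold change -2.55, adjusted p = 0.0248), and with at most 2 counts in each SUZ12 KO library it was at least 15.5-fold lower there (adjusted p = 0.00155). ITGA8 went from 1.08, 1.27 and 0.831 CPM to 0.383, 0.0543 and 0.0474 in EZH2 KO (log2 fold change -2.56, adjusted p = 0.0326) and was at least 7.22-fold lower in SUZ12 KO (adjusted p = 0.0133).

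The laminin chains split. LAMA3 was at 10.8, 11.5 and 10.3 CPM in the controls, 32.6, 15.9 and 38.1 in EZH2 KO and 46.6, 26.6 and 32.1 in SUZ12 KO (log2 fold change 1.49, adjusted p = 0.0114, and 1.76, adjusted p = 0.00355). LAMB3 was at 5.55, 6.31 and 10.8 CPM, then 35.1, 45.7 and 40.1 and 24.1, 55.1 and 35 (2.50, adjusted p = 0.00272, and 2.40, adjusted p = 0.00242). LAMB1 moved the other way, from 430, 440 and 411 CPM to 242, 259 and 200 and to 190, 227 and 207 (-0.78, adjusted p = 0.00247, and -0.97, adjusted p = 5.75e-04). No KO library of LAMA3, LAMB3 or LAMB1 overlapped the controls.

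Called by edgeR in SUZ12 KO and not in EZH2 KO were ITGA2B (0.287 ± 0.136 to 4.15 ± 2.77 CPM, n = 3 each, adjusted p = 0.0364), ITGA4 (7.83 ± 2.84 to 16.9 ± 0.902, adjusted p = 0.0318), LAMC3 (0.842 ± 0.471 to 7.11 ± 4.87, adjusted p = 0.00957), ITGAV (102 ± 9.89 to 43.1 ± 6.21, adjusted p = 0.00769) and ITGB1 (791 ± 151 to 426 ± 10.3, adjusted p = 0.0163). This split is that of edgeR: DESeq2 also called ITGAV and ITGB1 lower in EZH2 KO (adjusted p = 0.0225 and 0.0368, and 0.0553 and 0.0809 by edgeR). Tested directly, EZH2 KO against SUZ12 KO gave 0 calls among the 31 genes by edgeR and 0 by DESeq2, and edgeR called 0.00661% of all genes. By edgeR 6 of the 31 had an unadjusted p under 0.05, against 629 of all 15130 genes.

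With 1 library left out of experiment 2, the EZH2 KO calls of ITGA1, ITGA3, ITGAM, ITGAX, ITGB2, ITGB5, LAMB1 and LAMB3 held in all 12 fits. LAMA3 was lost without WT clone R1 (adjusted p = 0.0544), ITGB8 in 4 fits (0.0571 to 0.0888), ITGAD in 5 (0.061 to 0.0754), ITGA8 in 6 (0.0533 to 0.112) and ITGA2 in 7 (0.0522 to 0.134), and WT clone R1 and EZH2 KO clone 3 were among the libraries that mattered for each of these last 4. In SUZ12 KO, ITGA8 was lost without SUZ12 KO clone 2 (0.0615), LAMC3 without WT clone R1 (0.0525) or R2 (0.0517), ITGA2 without WT clone R1 (0.083) or the parental library (0.0768), ITGAD without WT clone R1 (0.0541) or R2 (0.0508) or SUZ12 KO clone 2 (0.0565), ITGB1 in 4 fits (0.0513 to 0.0653), ITGA4 in 5 (0.0524 to 0.109) and ITGA2B in 6 (0.0517 to 0.125). The other 11 SUZ12 KO calls held in all 12 fits.

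STAG2 KO and PRC2 KO share controls, so they were compared directly. Between STAG2 KO and EZH2 KO in experiment 2, 18 of 31 genes (58.1%) were called, against 20.4% of all genes, 8 higher and 10 lower in STAG2 KO (background 8.04% and 12.4%). Between STAG2 KO and SUZ12 KO it was 17 of 31 (54.8%), against 25.8%, 8 higher and 9 lower (11.2% and 14.5%). ITGB2 was at 1.74 ± 1.31 CPM in the 3 STAG2 KO clones against 41.3 ± 26.6 in EZH2 KO and 35.7 ± 4.99 in SUZ12 KO (log2 difference -4.58, adjusted p = 2.75e-04, and -4.35, adjusted p = 2.87e-04). LAMA3 was at 3.51 ± 1.10 CPM against 28.9 ± 11.5 and 35.1 ± 10.4 (-3.05, adjusted p = 2.01e-04, and -3.32, adjusted p = 1.03e-04). Both genes had fallen from the controls in STAG2 KO over experiments 1 and 2 and had risen in the PRC2 KOs. ITGAX was at least 38.8-fold and 12.8-fold lower in STAG2 KO than in EZH2 KO and SUZ12 KO, the log2 differences of ITGAM were -2.60 and -2.50 (adjusted p = 0.00876 and 0.00829), and those of LAMA4 -4.03 and -4.13 (0.0056 and 0.00378). ITGAX, ITGAD and LAMC3, which are among the calls against both PRC2 KOs, passed the filter only with the PRC2 KO libraries. Their calls follow from being counted there.

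Higher in STAG2 KO than in either PRC2 KO were ITGA4, ITGA6, ITGAV, ITGB1, ITGB5, ITGB8, LAMB1 and LAMC1. ITGA6 was at 30.4 ± 12.7 CPM in STAG2 KO against 9.79 ± 6.06 in EZH2 KO and 8.57 ± 3.10 in SUZ12 KO (log2 difference 1.61, adjusted p = 0.0279, and 1.82, adjusted p = 0.0135). ITGB8 was at 4.22 ± 3.69 CPM against 0.359 ± 0.190 (3.50, adjusted p = 0.00447) and at least 28.7-fold higher than in SUZ12 KO. ITGB1 was at 892 ± 253 CPM against 496 ± 62.3 and 426 ± 10.3 (0.82, adjusted p = 0.0171, and 1.06, adjusted p = 0.00378). ITGA1, ITGA2, ITGA3 and ITGA8 gave no call by edgeR in either of these comparisons, but DESeq2 called ITGA3 lower in STAG2 KO than in EZH2 KO (adjusted p = 0.0476, and 0.0884 by edgeR) and ITGA1 higher than in SUZ12 KO (0.0442, and 0.0808 by edgeR). With any 1 library left out, the calls of ITGAM, ITGAX, ITGB2, ITGB8, ITGAV, LAMA3, LAMA4, LAMB1 and LAMB3 held in all 12 fits against both PRC2 KOs, while that of ITGA7, at an adjusted p of 0.05 against SUZ12 KO, was lost in 10 of 12. In these fits too ITGAX passed the filter only with the PRC2 KO libraries.

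STAG1 KO was compared with the 2 controls of experiment 3 by the same test. Of 31 tested, 3 (9.68%) were called, against 5.27% of all genes: ITGA5 and ITGAX higher and ITGA2B lower. ITGA5 was at 192 and 222 CPM in parental and WT clone cells and at 338, 332 and 293 in the libraries labelled g2n1, g2n5 and g2n7 (log2 fold change 0.63, adjusted p = 0.0391). ITGA2B was at 4.66 and 5.41 CPM and then 1.33, 1.64 and 1.44 (-1.77, adjusted p = 0.0271), and ITGAX, at 1 count in each control, was at 1.01, 0.709 and 1.95 CPM, at least 7.94-fold higher (adjusted p = 0.0386). ITGAX passed the filter only through the STAG1 KO libraries, so its call follows from being counted there. The ranges of these 3 genes did not overlap, as for 46.4% of all genes in this small design. All 3 calls were lost without either control (adjusted p 0.153 to 0.332) and without g2n7 (0.0578 to 0.0638), and those of ITGA5 and ITGA2B also without g2n5 (0.0749 and 0.0547). Without the library labelled g2n1, in which STAG1 RNA was at the control level, 6 genes were called, adding ITGA2, ITGA3 and ITGA7. Like ITGAX, ITGA2 was over the filter's minimum in 0 of the 2 controls. It passed only through STAG1 KO libraries, so its call follows from being counted there. ITGB2 was at 11.3 and 14 CPM in controls and 23.2, 25.2 and 70.2 in STAG1 KO, and LAMA3 at 17.7 and 22.3 and at 15.0, 5.56 and 16.8. Neither was called by edgeR (adjusted p = 0.129 and 0.383), and DESeq2 called ITGB2 (log2 fold change 1.65, adjusted p = 0.00495) and not LAMA3 (adjusted p = 0.37).

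The effects of the 2 cohesin subunits were also set against each other, by a test of their difference over experiments 1 to 3. It called 7 of 31 genes (22.6%), against 6.11% of all genes (3.75% lower), all 7 lower after STAG2 loss than after STAG1 loss: ITGA1 (log2 difference -2.45, adjusted p = 0.0228), ITGA7 (-1.94, adjusted p = 0.0137), ITGB2 (-3.39, adjusted p = 0.0193), LAMA4 (-3.90, adjusted p = 0.0279), ITGA11 (-3.10, adjusted p = 0.0424) and, with group counts near 0, ITGA8 (adjusted p = 0.0305) and ITGAX (0.0352). ITGAX passed the filter here only through the STAG1 KO libraries, so its call follows from being counted there. All 7 calls were lost without the parental or the WT clone library of experiment 3 (0 calls), and those of ITGA1, ITGA7 and ITGB2 held in the other 14 fits. Without g2n1 the count was 6.

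**Figure D5:**
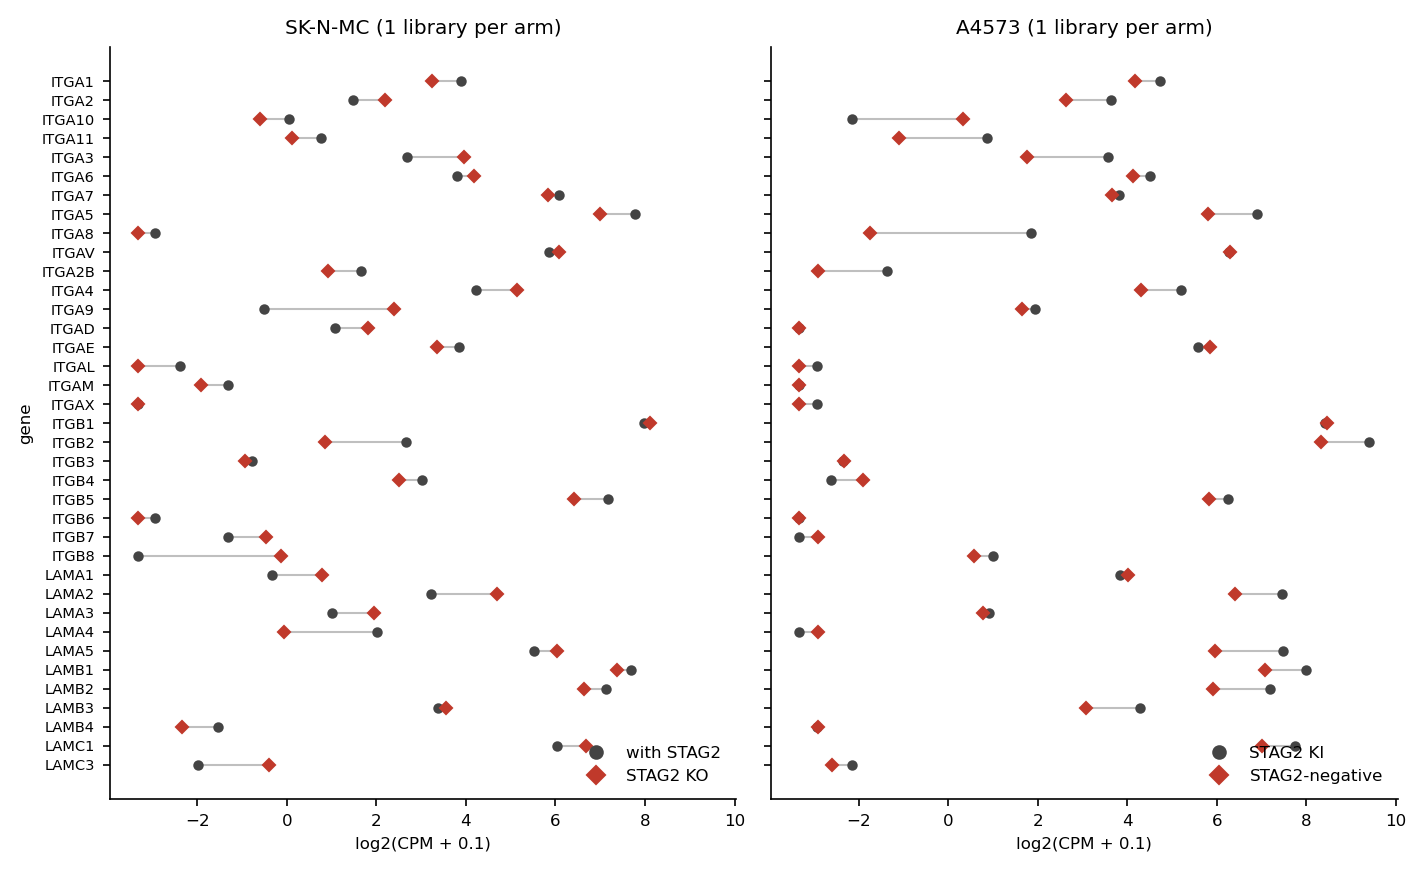
Level of 37 of the integrin and laminin genes in SK-N-MC (WT and STAG2 KO) and A4573 (WT, without STAG2 protein, and STAG2 KI), as log2(CPM + 0.1); each point is 1 library, a line joins the arms of a gene, and no error can be given. ITGB2 is lower without STAG2 in both lines, 1.70 against 6.25 CPM in SK-N-MC and 320 against 678 CPM in A4573.

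The 2 other lines had 1 library per arm, so no test was made and a gene is counted when it differed by more than 2-fold. STAG2 RNA was at 184 CPM in SK-N-MC STAG2 KO against 293 in WT, and at 34.1 CPM in A4573 against 86.9 in STAG2 KI. In SK-N-MC, 8 of 34 genes (23.5%) passed, against 21.6% of all genes, 6 higher and 2 lower without STAG2. ITGA3 was at 15.5 against 6.34 CPM, ITGA9 at 5.17 against 0.607, LAMA2 at 26.0 against 9.23, LAMA1 at 1.64 against 0.698 and LAMC3 at 0.655 against 0.152, while ITGB8, with no count in WT, was at least 9-fold higher at 0.819. ITGB2 was lower at 1.70 against 6.25 CPM and LAMA4 at 0.851 against 3.92. PTPRC was at 58.2 CPM in SK-N-MC STAG2 KO and 3 in WT, and its part in these values was not tested. Of the leukocyte integrin subunits, ITGAD had 104 counts in STAG2 KO and 66 in WT. ITGAL, ITGAM and ITGAX were at 0.303 CPM or less in both.

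In A4573, 12 of 27 genes (44.4%) passed, against 21.8% of all genes, 1 higher and 11 lower without STAG2, against 7.76% and 14.1%. ITGB2 was at 320 CPM without STAG2 and 678 with it, the highest levels of this gene among the A673, SK-N-MC and A4573 libraries. ITGA8 was at 0.199 against 3.50 CPM, ITGA3 at 3.29 against 11.8, ITGA5 at 55.8 against 120, ITGA2 at 6.08 against 12.4, ITGA11 at 0.365 against 1.72, and ITGA2B was at least 2.88-fold lower. The laminin chains LAMA5 (62.5 against 179 CPM), LAMA2 (84.9 against 176), LAMB2 (60.4 against 145) and LAMB3 (8.30 against 19.5) were also lower, and ITGA10 was higher at 1.16 against 0.127. ITGA3 and LAMA2 thus differed in opposite directions in the 2 lines. The lines also differed in which alpha chain they held: LAMA1, counted in A673 in SUZ12 KO clone 2 (1.13 CPM) and g2n5 (0.0545 CPM) alone, was at 16 and 14.1 CPM in A4573, and LAMA2 was at 1.41 to 5.48 CPM in A673.

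Among the genes measured in all 4 comparisons with and without STAG2, only ITGB2 met the mark in each. It was called lower in A673 with STAG2 KO and with siSTAG2, and was more than 2-fold lower in SK-N-MC and A4573. Its STAG2 KO call was absent in experiment 2 alone (edgeR, adjusted p = 0.287) and against the WT clone alone (0.0545). In A4573 it was at 320 against 678 CPM, little over 2-fold. The share of all genes that met all 4 marks was not counted. ITGA8 was lower in A673 KO and A4573, and LAMA4 in A673 KO and SK-N-MC, but ITGA8 had at most 1 count in both SK-N-MC libraries and LAMA4 at most 1 in both A4573 libraries. ITGA3 was higher without STAG2 in A673 and SK-N-MC and lower in A4573. ITGA1 was lower in A673 by both routes, and at 9.43 against 14.7 CPM in SK-N-MC and 17.8 against 26.5 in A4573, differences under 2-fold, and ITGB5 at 85.8 against 144 and 56.9 against 76.3, also under 2-fold.

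Genes that work with integrins and laminins were read in 4 lists. Their counts stand against the shares of all genes that rose and fell, 6.67% and 5.76% in STAG2 KO and 9.54% and 11% with siSTAG2. They were 12% and 3.69% in EZH2 KO, 14.7% and 5.87% in SUZ12 KO and 2.77% and 2.5% in STAG1 KO. The shares more than 2-fold higher and lower without STAG2 were 10.4% and 11.2% in SK-N-MC and 7.76% and 14.1% in A4573. Of the cytoplasmic adhesion proteins, 2 of 27 tested rose and 6 fell in STAG2 KO and 11 of 27 fell and none rose with siSTAG2. NEDD9, an adaptor in integrin signalling, fell from 13.1 ± 6.78 to 1.32 ± 0.404 CPM in STAG2 KO (log2 fold change -3.28, adjusted p = 6.24e-05) and from 57.4 ± 18.3 to 14.6 ± 5.22 normalised counts with siSTAG2 (-1.91, adjusted p = 1.81e-05). The pooled controls differed here: in the WT clone against parental cells 3 of 28 were called lower, NEDD9 among them, and 0 higher. The shares of all genes were 0.96% and 1.76%. FERMT3, the kindlin known from blood cells, rose from 25.8 ± 8.67 to 72.4 ± 24.4 CPM in STAG2 KO (adjusted p = 0.00315) but was lower without STAG2 in SK-N-MC (2.16 against 6.56 CPM) and A4573 (1.29 against 5.57). In EZH2 KO 7 of 30 rose and 6 fell and in SUZ12 KO 6 rose and 7 fell, with TNS4, at 0 in the controls, at least 4.55-fold and 15.4-fold higher and NEDD9 lower (log2 fold change -2.51 and -2.74). In STAG1 KO 3 of 28 rose and none fell, TNS2 from 13 ± 0.748 to 27.0 ± 4 CPM (adjusted p = 0.0334). In SK-N-MC 3 of 29 were higher and 8 lower without STAG2, and in A4573 1 of 28 was higher and 4 lower.

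Of the other basement membrane proteins, 2 of 8 fell in STAG2 KO and none rose. NID2, a nidogen that joins laminin to collagen IV networks, went from 73.6 ± 36.7 to 1.59 ± 1.94 CPM (log2 fold change -5.24, adjusted p = 0.00145), from 67.6 ± 9.64 to 10.8 ± 2.06 normalised counts with siSTAG2 (-2.54, adjusted p = 1.53e-08) and from 173 ± 0.884 to 85.0 ± 13.5 CPM in STAG1 KO (-1.03, adjusted p = 0.0257), and it was at 1.21 against 27.2 CPM in SK-N-MC. With siSTAG2, COL4A1 rose (0.32) and AGRN fell (-0.41) among 7 tested. COL4A5, at 0 in the controls, was at least 48.0-fold higher in EZH2 KO and 50.2-fold in SUZ12 KO, and of 11 genes 3 rose in each while 1 and 2 fell. Of the laminin receptors outside the integrins, 1 of 11 rose and 1 fell in STAG2 KO, SDC4 from 14.9 ± 2.51 to 24.4 ± 8.87 CPM and SGCB from 51.0 ± 5.66 to 35.4 ± 5.84, and with siSTAG2 1 of 10 rose, again SDC4, and 2 fell. In EZH2 KO and SUZ12 KO 2 and 4 of 11 fell, among them SDC2 from 231 ± 8.44 to 82.0 ± 19.5 and 86.1 ± 19.8 CPM and the hemidesmosome linker DST from 103 ± 12.3 to 43.1 ± 7.26 and 40.9 ± 4.23, and BCAM rose in SUZ12 KO. Without STAG2, 4 of 11 basement membrane genes were higher and 2 lower in SK-N-MC and 6 of 12 lower in A4573. Of the laminin receptors, 3 of 13 were higher and 1 lower in SK-N-MC and 1 of 11 lower in A4573.

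Of the integrin ligands outside laminins and collagens, 5 of 17 fell and 1 rose in STAG2 KO. TNC went from 871 ± 233 to 108 ± 35 CPM (log2 fold change -2.92, adjusted p = 5.55e-05) and EDIL3, a ligand of ITGAV integrins, from 11.4 ± 7.62 to 120 ± 53.5 (3.44, adjusted p = 0.00366). In the WT clone against parental cells 5 of 18 ligands were called higher, EDIL3 among them, and 0 lower. The shares of all genes were 1.76% and 0.96%. With siSTAG2 3 of 11 fell and none rose, among them VCAM1, the ligand of ITGA4 (91.3 ± 25.1 to 27.9 ± 9.79 normalised counts, adjusted p = 5.98e-06), and FN1, the ligand of ITGA5 (log2 change -1.40, adjusted p = 7.58e-13). In EZH2 KO 1 of 20 rose and 3 fell, in SUZ12 KO 3 rose and 4 fell, with CCN1 lower in both (log2 fold change -1.90 and -2.46), and in STAG1 KO 4 of 18 rose and none fell. In SK-N-MC 6 of 21 were higher and 6 lower without STAG2. FN1 was at 113 against 4020 CPM there, TNC at 30.4 against 308 and EDIL3 at 15.2 against 1.79. In A4573 2 of 19 were higher and 9 lower.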

How the data were processed

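Poly(A) RNA was primed with oligo-dT and the libraries were single-end and non-directional, so overlapping genes on opposite strands share reads. Besides ITGB2, this concerns ITGA7 (exon overlap with BLOC1S1 and METTL7B), LAMA5 (ADRM1), LAMB1 (DLD) and ITGA4 (CERKL), among others. Per the submitters' processing notes, alignment to hg38 used TopHat2 (version 2.0.0), with Bowtie (version 0.12.7) under it and SAMtools (version 0.1.16), and a few placements per read were allowed, so near-identical sequences can share reads. The authors deposited raw read counts per gene for experiments 1 to 3, SK-N-MC and A4573, and normalised signal values per Ensembl gene for experiment 4, in which 100% of values came back to whole reads within 0.01 (6852340 to 8184632 reads per library).

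The counts were fitted with edgeR 4.0.16 (TMM, filterByExpr, quasi-likelihood test) over all genes in R 4.3.3, with experiment as a term where a comparison spans experiments. The values of experiment 4 were tested with limma 3.58.1 (trend) on log2(value + 1) for genes with a mean of at least 10, so fold changes of low genes are understated. The SK-N-MC and A4573 pairs (at least 10 counts per pair, prior count 2) were not tested. CPM are TMM-scaled. CPM per kb divides by merged GENCODE exon length. Folds against groups with at most 3 counts per library are bounds against 3 counts, and such bounds cover counting error only. The scripts were tested on simulated data. DESeq2 1.42.0 and other settings were alternatives. Experiment 1 STAG2 KO columns were matched to the group only, since their numbers differ from the clone numbers in the labels. Upstream sequences are from RefSeq (26 of 38 genes matched).

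The genes, the other adhesion lists and the marker lists were chosen with earlier results of these data known. The values of 1 of the 38 genes and of 1 marker are not reported here. Called genes are given with their values, and of the other lists at most the 2 highest and 2 lowest called genes per comparison are named.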

Additional observations from a re-analysis of the deposited data

Results flagged for a closer look

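ITGA3 was at 33.84 CPM in the STAG2 KO library numbered 24 of experiment 1, far from the 5.69 to 9.23 CPM of the other 4 STAG2 KO libraries by Dixon's test, one of 42 groups of samples tested, of which chance alone would mark about 1 in 20. The same library kept 183 CPM of STAG2 RNA, and its part in this value was not tested. Without it ITGA3 remained called.

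The effect of STAG2 KO and that of STAG1 KO differed, in the test of the difference itself, for ITGA1 (log2 difference -2.446), ITGA11 (-3.101), ITGA7 (-1.94), ITGA8 (-6.098), ITGAX (-6.115), ITGB2 (-3.394) and LAMA4 (-3.896). The values of ITGA8 and ITGAX depend on the prior count because a group is near 0 counts. ITGAX passed the filter only through the STAG1 KO libraries, where it was high. None of the 7 was called when either of the 2 control libraries of experiment 3 was left out.

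Without STAG2, ITGA3 was higher in SK-N-MC (log2 difference 1.296) and lower in A4573 (-1.821), and LAMA2 was higher in SK-N-MC (1.503) and lower in A4573 (-1.049). Each arm was 1 library and the difference between the lines was not tested.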

How the results depend on the processing

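Counts of called genes are given here out of the genes tested, with the main value first. The number of all genes called also changed between fits and is given for some of them. For STAG2 KO (11) the count was 7 with the WT clone as the only control, 7 in experiment 2 alone and 0 with the parental cells as the only control (edgeR, 2 control libraries), and 6 to 16 with 1 library left out, where clone 5 of experiment 2, whose removal gave 16, raised it and KO library 5 of experiment 1 and WT clone R1 of experiment 2 lowered it. With the 2 similar WT clone libraries of experiment 1 summed, an alternative chosen after seeing the data, the count was 8. For STAG1 KO (3) it was 10 by DESeq2, 5 with RLE size factors, 6 without the filter on low counts and 0 to 6 with 1 library left out. Over all genes, the main STAG1 KO fit called 757 of 14373. The count was 1935 of 20397 by DESeq2, 773 of 14373 with RLE size factors and 1032 of 20397 without the filter. The difference between STAG2 and STAG1 effects (7) gave 15 calls with no experiment term and 0 to 9 with 1 library left out. WT clone against parental (2) gave 5 by DESeq2, 5 without the filter and 0 to 4 with 1 library left out, and siSTAG2 (7) gave 4 at a mean of at least 50 and 4 to 6 with 1 library left out. Leaving out 1 library gave 8 to 18 calls for EZH2 KO (13), 12 to 19 for SUZ12 KO (18), 13 to 20 for STAG2 against EZH2 KO (18), 14 to 21 for STAG2 against SUZ12 KO (17) and 0 for EZH2 against SUZ12 KO. Over all genes, EZH2 KO gave 2377 of 15130 in the main fit, 1169 of 15538 without WT clone R1 and 3885 of 15448 without STAG2 KO clone 5. For single genes, 1391 of the alternative values kept direction and call, 208 lost the call and none reversed; the causes were not tested.

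With the replicate number as a block the counts were 18 for EZH2 KO (11 higher, 7 lower), 20 for SUZ12 KO (12 and 8), 7 for siSTAG2 and 0 for EZH2 against SUZ12 KO. Calls over all genes rose too: the EZH2 KO block fit called 3824 of 14262, against 2377 of 15130 in the main fit. The numbers did not pair the samples: same-numbered siC and siSTAG2 libraries deviated with correlations of 0.0257, 0.0372 and 0.00402, and same-numbered EZH2 and SUZ12 KO clones with -0.14, 0.38 and 0.322. Genes with a few counts per library, such as ITGAD and ITGA8, are limited by depth.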
